A study of Saccharomyces cerevisiae with 12 samples.

Results

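Genes whose transcript level depended on which nuclear topoisomerase was missing were sought by setting *top1Δ* cells, which lack the type I enzyme Top1p, directly against *top2ts* cells, in which the type II enzyme Top2p is inactive. The comparison used the 3 arrays titled *top1Δ* and the 3 titled *top2ts*, 6 of the 12 arrays of the series, and covered 5449 *S. cerevisiae* genes. The *top1Δ* strain carries W303 *top1::natr*, a deletion marked with a drug-resistance cassette. The *top2ts* strain carries W303 *top2-1*, a temperature-sensitive allele. Both strains derive from W303a, a laboratory background of mating type a, and both were grown in rich medium, arrested in G1 with the mating pheromone α-factor for 90 min at 25°C and then held for 90 min at 37°C with α-factor still present. Both therefore met the same heat and the same pheromone, and Top2p stayed active in *top1Δ* while Top1p stayed active in *top2ts*. Equal numbers of cells received bacterial poly-A RNAs as spike-ins ahead of RNA extraction. Each genotype is represented by 1 strain, so an effect of the missing enzyme and any other difference between the strains cannot be told apart.

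DNA in front of a moving RNA polymerase becomes overwound and DNA behind it underwound. Top1p nicks 1 strand and lets the helix turn, whereas Top2p cuts both strands and passes another duplex through the break, which also unlinks sister chromatids. In yeast either enzyme can remove transcription-driven supercoils, and *TOP1* is dispensable for growth while *TOP2* is essential. In an a cell, α-factor acts through a receptor and a kinase cascade on the transcription factor Ste12p, which switches on genes for cell fusion, G1 arrest and nuclear fusion.

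Arrays were scaled to the 42 spike-in probe sets (*dap*, *lys*, *phe*, *thr* and *trp* of *B. subtilis*), and differences are *top1Δ* minus *top2ts* on the log2 scale, with same-numbered arrays as pairs. Before scaling, the spike-ins averaged 9.47, 8.69 and 9.49 on the log2 scale in *top1Δ* and 9.45, 8.46 and 9.59 in *top2ts*, so the arrays numbered 2 were lower in both strains. The 6 *trp* probe sets lay at background, with a median signal of 1.85, and their pairs differed by -0.17, 1.61 and -0.92, whereas the other 36 probe sets differed by 0.05, 0.00 and 0.04. The background is given by the 17 Tag control probe sets, whose 95th percentile was a scaled signal of 16.9. A gene passed where its adjusted p from limma was below 0.05. limma estimated a common variance, so the standard error was 0.225 for every gene.

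Far more transcripts were lower than higher in *top1Δ*: 98 genes passed as higher and 286 as lower, out of 5449. These are 1.80% and 5.25% of all genes, and 7.05% together. The arrays of the strains did not overlap for 319 of these 384 genes, and 357 differed in the same direction in all 3 pairs. Over all genes 14.6% had no overlap, 366 of them higher and 429 lower in *top1Δ*. The 319 and 357 rest on the values that made the calls, so they are no separate support. Both strains lay at or under the Tag level for 21 of the 384, of which 6 were called higher and 15 lower, so these 21 have no measured level on either side. At least a 2-fold difference was seen for 27 genes upwards and 105 genes downwards. The median difference over all genes was -0.01, and 48.7% of genes had the higher mean in *top1Δ*. The median shift was not stable between pairs, at -0.30, 0.07 and 0.21. The counts moved with the scaling and with the pairs. Without the *trp* probe sets 59 genes were higher and 192 lower, all of them among the 384. Without the pairing by replicate number 43 were higher and 174 lower. With arrays brought to equal medians 577 were higher and 775 lower, so that 42.7% of calls were higher, against 25.5% with spike-in scaling. Leaving out pair 1 gave 509 higher and 263 lower, so that more genes were then higher than lower, leaving out pair 2 gave 25 and 106, and leaving out pair 3 gave 34 and 234.

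**Figure D1:**
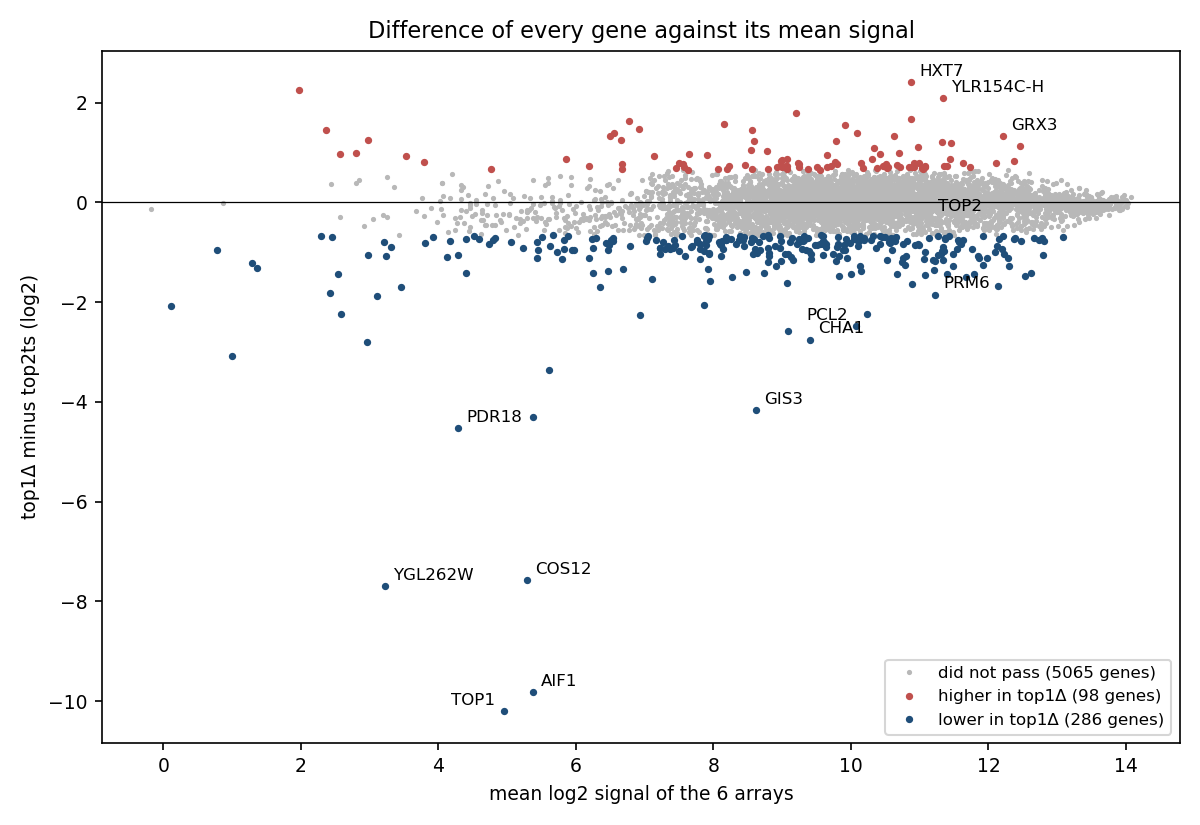
Difference between *top1Δ* and *top2ts* (vertical axis, log2) against the mean log2 signal of the 6 arrays (horizontal axis), 1 point per gene. The 98 genes higher in *top1Δ* are red, the 286 lower are blue, and *TOP1*, *AIF1*, *COS12*, *YGL262W*, *PDR18*, *YNR071C* and *GIS3* lie below -4.

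*TOP1* (YOL006C) checks the labels. Its signal was 0.659, 1.13 and 0.974 in the 3 *top1Δ* arrays, against 1086, 1306 and 843 in *top2ts*. All *top1Δ* arrays were below the Tag level, so the transcript was at least 63.0-fold lower in *top1Δ*. *TOP2* (YNL088W) gave 2049, 2097 and 2006 in *top1Δ* and 3326, 2567 and 1876 in *top2ts*. Those values overlapped and the difference of -0.30 (95% interval -0.74 to 0.14) did not pass (adjusted p = 0.553). Because *top2-1* affects the activity of the protein, its transcript does not check the *top2ts* label. Among 12 topoisomerases and partner proteins, *TDP1*, which encodes the phosphodiesterase that removes Top1p left attached to DNA, was the other gene that passed. It gave 427, 459 and 375 in *top1Δ* and 724, 796 and 665 in *top2ts*, a difference of -0.79 (adjusted p = 0.00943). That call was lost without replicate 2, without replicate 3 and without the pairing. *TOP3*, the third nuclear topoisomerase, averaged 182 ± 24.9 in *top1Δ* and 175 ± 26.7 in *top2ts* (SD, n = 3 each), and *SGS1*, its helicase partner, 937 ± 79.9 in *top1Δ* and 763 ± 151 in *top2ts*.

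Neighbouring genes at a pair of chromosome ends were among the 15 with the largest fitted differences, all lower in *top1Δ*. In most of them *top1Δ* lay under the Tag level, so that the folds are lower bounds and give no order. At the left end of chromosome VII the 4 outermost measured genes passed. *COS12*, a member of a subtelomeric family of membrane proteins, gave 4.61, 1.28 and 3.90 in *top1Δ* and 607, 728 and 356 in *top2ts*, at least 32.0-fold lower. The uncharacterised *YGL262W* gave 1.98, 0.425 and 0.325 in *top1Δ* and 163, 126 and 119 in *top2ts*, at least 7.98-fold lower. *YPS5*, which resembles the yapsin proteases of the cell surface, gave 19.3, 13.3 and 13.7 in *top1Δ* and 170, 184 and 120 in *top2ts*, at least 8.82-fold lower. *YGL258W-A* followed with 52.9, 64.2 and 51.7 in *top1Δ* and 342, 292 and 191 in *top2ts* (difference -2.26, adjusted p = 4.67e-21). The step ended there. The next genes inwards, *VEL1* (-0.55, adjusted p = 0.140), *MNT2* (-0.57), *ADH4* (0.09) and *ZRT1* (-0.09), did not pass.

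At the right end of chromosome XIV the pattern began a few genes in from the end. *AIF1*, which encodes the yeast counterpart of the mammalian apoptosis-inducing factor, gave 0.247, 1.13 and 9.33 in *top1Δ* and 1416, 1514 and 904 in *top2ts*, at least 74.0-fold lower. *YNR071C*, whose product resembles sugar epimerases, gave 13.8, 7.09 and 8.20 in *top1Δ* and 233, 199 and 136 in *top2ts*, at least 10.9-fold lower. *PDR18*, an ABC transporter of the plasma membrane, gave 9.14, 1.84 and 3.98 in *top1Δ* and 98.1, 100 and 82.5 in *top2ts*, at least 5.54-fold lower. In these genes the *top1Δ* arrays all lay below the Tag level and the *top2ts* arrays all above it. *HXT17*, a hexose transporter with near-identical relatives whose probe set can read more than 1 transcript, lies between them and was at least 1.92-fold lower, with 18.7, 18.4 and 6.35 in *top1Δ* and 45.2, 39.1 and 23.3 in *top2ts*. *COS10*, on the outer side of *AIF1*, went the other way, with 532, 892 and 679 in *top1Δ* and 401, 413 and 334 in *top2ts* (0.85, adjusted p = 0.00446), while *BSC5*, on the inner side of *PDR18*, did not pass (0.22, adjusted p = 0.711).

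**Figure D2:**
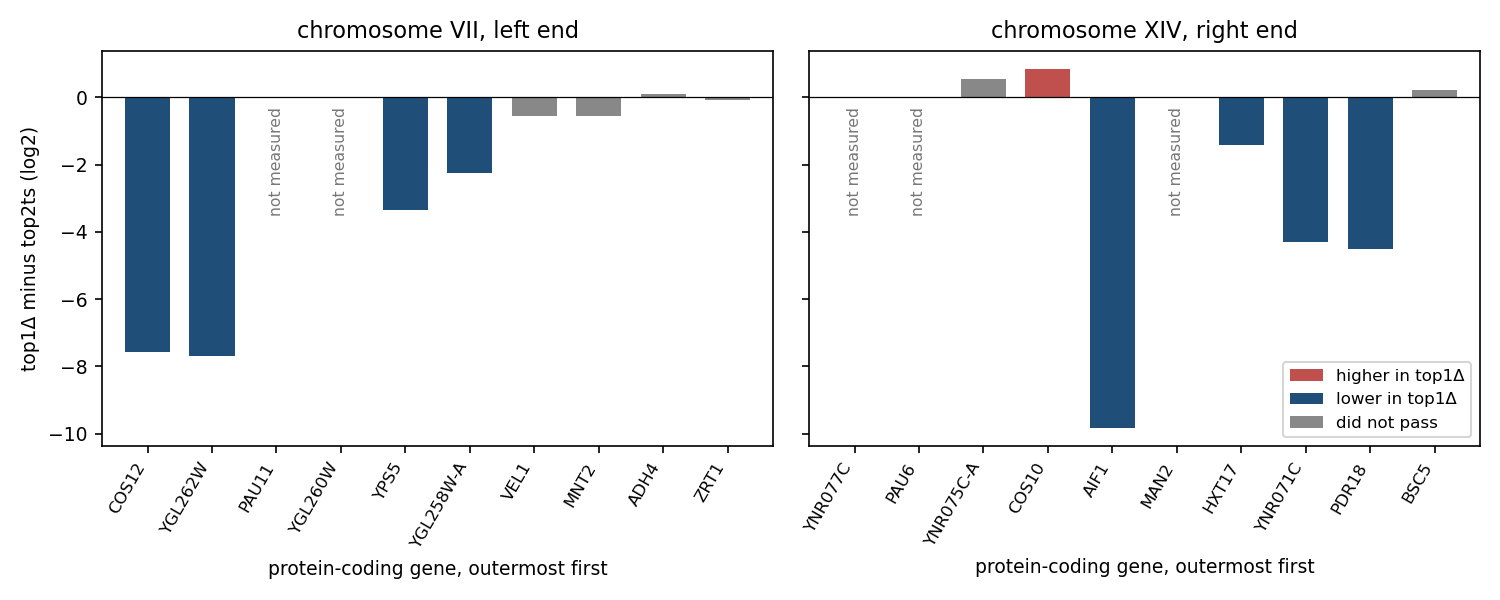
Difference between *top1Δ* and *top2ts* (vertical axis, log2) for the 10 outermost protein-coding genes at the left end of chromosome VII and the right end of chromosome XIV (horizontal axis, outermost first, gene order of assembly R64). Blue bars passed as lower and the red bar, *COS10*, as higher in *top1Δ*; where *top1Δ* lay under the Tag level (*COS12*, *YGL262W*, *YPS5*, *AIF1*, *HXT17*, *YNR071C*, *PDR18*) the length of a bar is not a measured size.

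For *COS12*, *AIF1*, *YNR071C*, *PDR18* and *YPS5* the signal was also low in the strains that took no part in the comparison. In *top1Δtop2ts*, which carries the *top2-1* allele as well, the highest of the 3 arrays was 1.38 for *COS12*, 1.49 for *AIF1*, 13.0 for *YNR071C*, 8.08 for *PDR18* and 26.1 for *YPS5*. In wild-type the highest array was 4.20 for *COS12*, 13.3 for *AIF1*, 10.5 for *YNR071C*, 13.8 for *PDR18* and 26.9 for *YPS5*. For these 5 genes the *top2ts* arrays thus held the high level, and the double mutant with the same allele did not. *YGL258W-A* differed, with 95.1 to 149 in *top1Δtop2ts* and 146 to 159 in wild-type, between its levels in *top1Δ* and in *top2ts*. *GIS3*, a gene of unknown function on chromosome XII, was high in *top2ts* alone as well, away from any end. It gave 74.6, 125 and 85.1 in *top1Δ* and 1738, 1789 and 1474 in *top2ts* (difference -4.16, adjusted p = 1.22e-72), with 43.9 to 171 in *top1Δtop2ts* and 73.3 to 171 in wild-type. The cause of the high level in *top2ts* was not tested.

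The chromosome ends as a whole held more than their share of calls. Of 235 measured genes among the outermost 10 of the 32 ends, 12 were higher and 42 lower in *top1Δ*, or 23.0%, against 6.33% of the other 5214 genes and 7.05% of all genes. Without the chromosome VII left and XIV right ends, a split made after the values were seen, 11 of 220 genes were higher and 34 lower, or 20.5%. Calls of lower genes came from 22 of the ends and calls of higher genes from 10. The median difference of the end genes was -0.10. Without replicate 2 the share was 11.1% at the ends, against 2.01% of the other genes, and with equal medians 35.7% against 24.3%. Apart from the ends of VII and XIV, 4 runs of 3 neighbouring measured genes passed in the same direction, all lower in *top1Δ*. One of them, chosen after its values were seen, holds *GIP1* (-0.97), *ZTA1* (-1.07) and *FMP23* (-1.49) on chromosome II. Signals of end genes were often low, and in the dimmest of 5 groups of genes by mean signal 12.2% were lower and 3.12% higher.

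The 15 lower genes with the largest fitted differences also included *CHA1*, *PCL2*, *SHH3* and *YBR200W-A*, beside *GIS3*, the seripauperins *PAU4* and *PAU18* and the genes of VII and XIV. *CHA1*, in place 6 from the left end of chromosome III, and *PAU4* and *PAU18*, at the ends of chromosome XII, are also end genes counted above. Of the 15 higher genes described below, *PAU9*, *YAR068W* and *YAR066W* are end genes too. *CHA1*, the serine and threonine deaminase that yeast makes to use these amino acids as nitrogen source, gave 242, 293 and 252 in *top1Δ* and 1506, 2178 and 1674 in *top2ts*. The difference was -2.75 (adjusted p = 1.29e-31), and *top1Δtop2ts* had 999 to 1150. *PCL2*, a G1 cyclin of the kinase Pho85p, gave 422, 508 and 448 in *top1Δ* and 3098, 3116 and 1723 in *top2ts* (-2.48, adjusted p = 1.57e-25). *SHH3*, a mitochondrial relative of a succinate dehydrogenase subunit, gave 112, 114 and 117 in *top1Δ* and 523, 479 and 424 in *top2ts* (-2.05, adjusted p = 2.15e-17). In *SHH3* the *top1Δ* arrays lay near the 49.9 to 83.4 of *top1Δtop2ts*, and the *top2ts* arrays near the 422 to 514 of wild-type. The uncharacterised *YBR200W-A* was at least 1.21-fold lower, with 1.48, 11.2 and 1.54 in *top1Δ* and 25.2, 15.6 and 21.7 in *top2ts*. The brighter strain thus stood just above background in the mean only, since 15.6 is under the Tag level of 16.9. In *top1Δtop2ts* it spanned 1.84 to 20.1 and in wild-type 6.87 to 15.5.

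Among the genes higher in *top1Δ*, *HXT7* differed most. It encodes a high-affinity glucose transporter and its probe set can also read near-identical transcripts such as that of *HXT6*. Signals of 3974, 4753 and 4270 in *top1Δ* stood against 1293, 669 and 621 in *top2ts* (2.41, adjusted p = 3.96e-24). *YLR154C-H*, a short reading frame whose probe set also reads several transcripts, gave 3484, 7062 and 6263 in *top1Δ* and 1613, 1291 and 952 in *top2ts* (2.09, adjusted p = 4.04e-18). Its level was uneven within other strains, at 59.3 to 3962 in *top1Δtop2ts*. A pair of neighbours at the right end of chromosome I, the uncharacterised *YAR068W* (1.78) and *YAR066W* (1.26), were both higher, the first with 1307, 1008 and 997 in *top1Δ* and 490, 268 and 245 in *top2ts*. *GRX3*, a cytosolic glutaredoxin that takes part in iron sensing, was also higher, with 6229, 10461 and 6414 in *top1Δ* and 3250, 3346 and 2446 in *top2ts* (1.32, adjusted p = 3.25e-07).

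The rest of the 15 higher genes have varied roles. *PLB2*, a phospholipase B of the cell envelope, gave 1873, 1694 and 1421 in *top1Δ* and 784, 486 and 461 in *top2ts* (1.56, adjusted p = 6.11e-10). *GAS2*, a glucan-modifying enzyme used in building the spore wall, gave 1637, 2129 and 1550 in *top1Δ* and 842, 634 and 567 in *top2ts* (1.39, adjusted p = 6.94e-08). Others were *SSP2* (sporulation, 1.57), *SPL2* (a regulator of phosphate uptake, 1.47), *GUP2* (a membrane protein linked to glycerol uptake, 1.45), *PRR2* (a kinase that dampens pheromone signalling, 1.39), *SFT1* (a Golgi SNARE, 1.34) and *AZR1* (a drug transporter, 1.33), none of them with overlapping arrays. All 30 genes with the largest differences, 15 in each direction, had no overlap between the strains and passed in all alternatives in which they were tested. The 30 were picked by size, call and sign on these same arrays, which favours both, so neither is separate support.

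**Figure D3:**
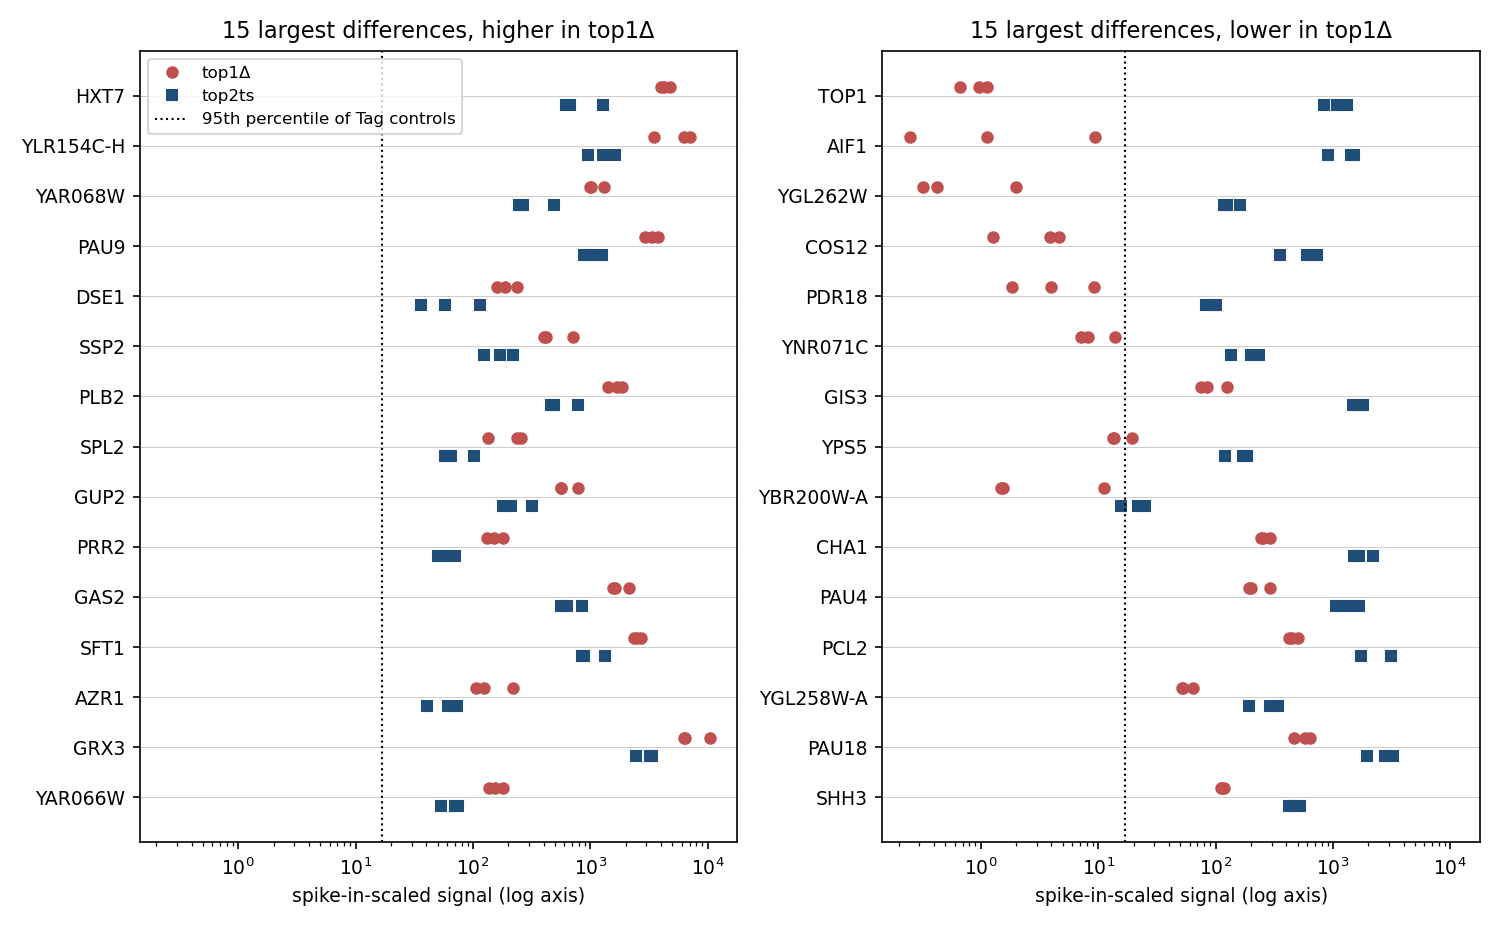
Scaled signal on a log axis in the 3 *top1Δ* arrays (red circles, upper of each row) and the 3 *top2ts* arrays (blue squares, lower of each row) for the 15 largest differences in each direction. The dotted line is the Tag level of 16.9; the circles of *TOP1*, *AIF1*, *COS12*, *YGL262W*, *PDR18* and *YNR071C* all lie left of it.

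The seripauperins, small cell wall proteins of a repeated subtelomeric family, had calls in both directions. Of 22 measured members of the list with related anaerobic wall genes, 4 were higher and 3 lower in *top1Δ* (18.2% and 13.6%, against 1.80% and 5.25% of all genes), and 2 and 2 without replicate 2. *PAU4* gave 192, 289 and 201 in *top1Δ* and 1668, 1319 and 1071 in *top2ts* (-2.57, adjusted p = 1.43e-27), and *PAU18* gave 572, 636 and 462 in *top1Δ* and 3249, 2784 and 1961 in *top2ts* (-2.24, adjusted p = 7.72e-21). In the other direction *PAU9* gave 3382, 3785 and 2946 in *top1Δ* and 1248, 1059 and 879 in *top2ts* (1.67, adjusted p = 1.94e-11), and *PAU14* gave 3692, 4325 and 3651 in *top1Δ* and 1910, 2077 and 1200 in *top2ts* (1.20, adjusted p = 5.91e-06). The probe sets of these 4 genes can read several members of the family, so the values cannot be assigned to a single locus.

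Pheromone-responsive genes were the group with the most calls, and all of them were lower in *top1Δ*. Of 43 measured genes of the mating response, 15 passed as lower and 0 as higher, or 34.9% against 5.25% of all genes, and the median difference was -0.46 against -0.01 for all genes. The mean was lower in *top1Δ* for 36 of the 43, against 51.3% of all genes. The list median was -0.73, -0.30 and -0.25 in the 3 pairs, and it stayed between -0.53 and -0.28 over the alternatives. The count was 14 without the *trp* spike-ins or without the pairing, and 16, 12 and 14 with pair 1, 2 or 3 left out.

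*PRM6*, a pheromone-regulated potassium channel protein, led with 1039, 1642 and 1171 in *top1Δ* and 5180, 5872 and 3064 in *top2ts* (-1.85, adjusted p = 5.15e-14). *ASG7*, an a-specific protein that quenches signalling after mating, gave 1999, 3375 and 2385 in *top1Δ* and 8411, 9712 and 6326 in *top2ts* (-1.67, adjusted p = 2.25e-11). *CIK1*, a partner of the kinesin Kar3p in nuclear fusion, gave 986, 1185 and 1053 in *top1Δ* and 3184, 4829 and 2412 in *top2ts* (-1.64, adjusted p = 5.92e-11). *PRM4* gave 3036, 4234 and 3486 in *top1Δ* and 9264, 12890 and 8028 in *top2ts* (-1.47, adjusted p = 7.80e-09). In each of these 4 genes the lowest *top2ts* array exceeded the highest *top1Δ* array. It also exceeded all wild-type and *top1Δtop2ts* arrays. Wild-type arrays spanned 1248 to 2032 for *PRM6*, 3005 to 5014 for *ASG7*, 802 to 1557 for *CIK1* and 2817 to 6982 for *PRM4*. In *top1Δtop2ts* they spanned 925 to 1726, 2310 to 5066, 1170 to 2003 and 4895 to 6293, in the same order. *FAR1*, which also passed, differed, with 1648 to 3000 in wild-type and 2755 to 5551 in *top2ts*. The cause was not tested. The other 11 that passed, named after their values were seen, were *KAR4* (-1.41), *MSG5*, *AFR1*, *FUS2*, *FAR1*, *PRM2*, *PRM3*, *FIG1*, *PRM10*, *KAR5* and *FUS1* (-0.75). By role they cover the transcription factor Kar4p, cell fusion (Fus1p, Fus2p, Fig1p), nuclear fusion (Cik1p, Prm3p, Kar5p), arrest (Far1p) and negative feedback (Msg5p, Afr1p, Asg7p). *PRR2*, which is not on that list and also restrains signalling, was higher in *top1Δ* (1.39).

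The upstream pathway genes named here did not pass, which does not show that they were unchanged. The receptor gene *STE2* gave 10995, 14257 and 10487 in *top1Δ* and 12872, 14251 and 11201 in *top2ts* (-0.11, adjusted p = 0.900). The transcription factor gene *STE12* averaged 3120 ± 550 in *top1Δ* and 4120 ± 758 in *top2ts* (-0.40, adjusted p = 0.348), and the kinase genes *STE7* (0.30) and *KSS1* (0.41) were on the other side of 0. *BAR1*, which encodes the protease that destroys α-factor, averaged 8396 ± 1660 in *top1Δ* and 11490 ± 1826 in *top2ts* (-0.46, adjusted p = 0.249). The differences of *STE12* and *BAR1* lay near the list median of -0.46. These values are given for genes chosen after the list had been seen.

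**Figure D4:**
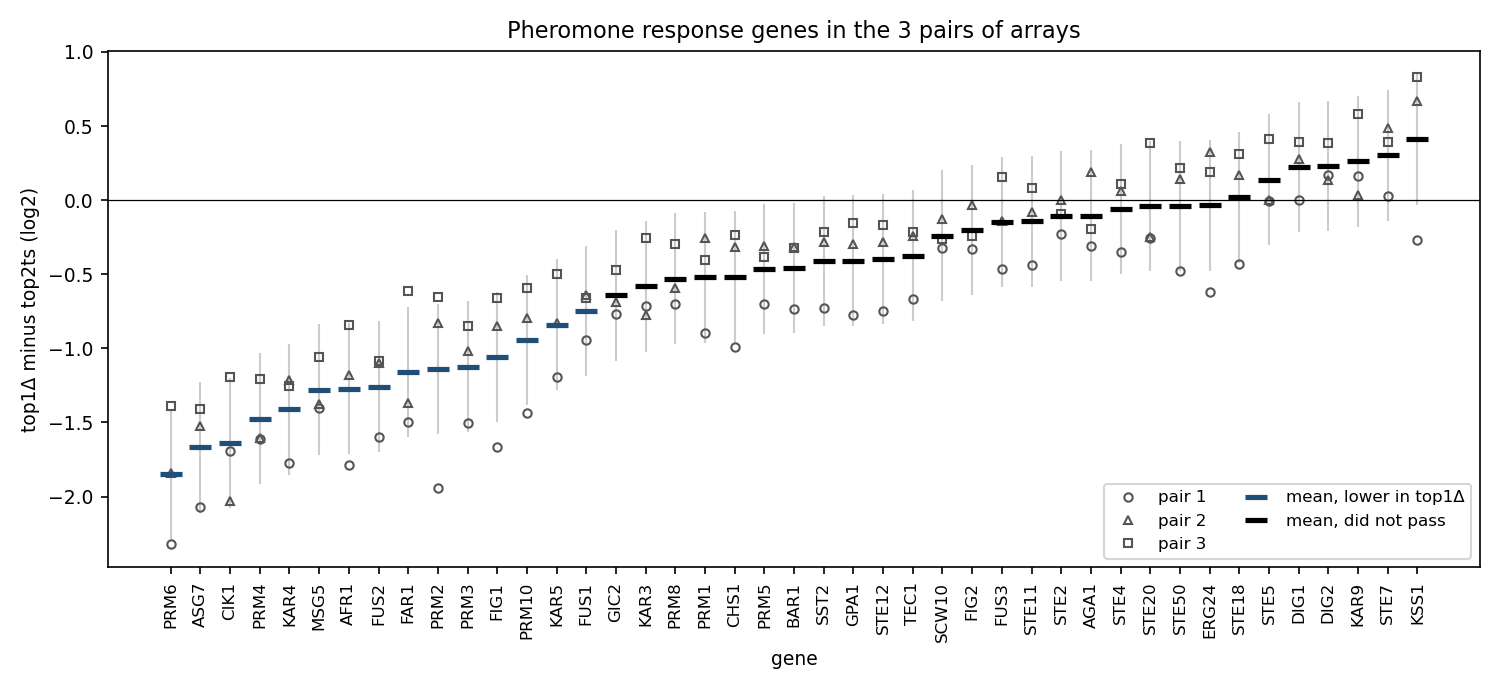
Difference between *top1Δ* and *top2ts* (vertical axis, log2) for the 43 pheromone response genes in order of their mean (horizontal axis). Open symbols are the 3 pairs, thick bars the means (blue where passed, black where not) and grey lines the 95% intervals; the 15 genes that passed all have their 3 pairs below 0.

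Markers of mating type and cell cycle stage describe the state of the cultures. The a-specific genes *MFA1* (11366 ± 1272 in *top1Δ*, 10145 ± 832 in *top2ts*), *STE6* (3990 ± 532 in *top1Δ*, 4434 ± 680 in *top2ts*) and *AGA2* (8643 ± 1128 in *top1Δ*, 10355 ± 1142 in *top2ts*) were far above the Tag level in both strains (SD, n = 3 each). Of the 7 measured a-specific genes 1, *ASG7*, passed as lower, or 14.3% against 5.25% of all genes. Of 4 α-specific genes 2 passed as lower in *top1Δ* at low levels, or 50% against 5.25% of all genes. *MF(ALPHA)2* gave 33.4, 68.9 and 44.3 in *top1Δ* and 117, 219 and 75.6 in *top2ts* (-1.41, adjusted p = 3.53e-08), and *STE3*, the receptor of α cells, gave 53.0, 52.3 and 44.2 in *top1Δ* and 127, 135 and 71.7 in *top2ts* (-1.11, adjusted p = 4.32e-05), a call lost without replicate 2 (adjusted p = 0.073). Of 33 genes of S phase and mitosis 3 were higher in *top1Δ*, or 9.09% against 1.80% of all genes. Among them were *CDC6* (259, 270 and 216 in *top1Δ*, 174, 132 and 132 in *top2ts*) and *MCM6*, both needed to prepare replication origins. Those 3 calls were lost without the pairing, without replicate 2 and without replicate 3. The 10 measured core and variant histone genes had no call, with differences from -0.47 to 0.15. The paper states that the arrest was checked by cell sorting in aliquots of each sample, without showing the data. Because RNA was taken from whole cultures, a change in the share of cells in a stage and a change in RNA per cell cannot be told apart from these arrays.

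Of 17 measured targets of Ace2p and Swi5p, genes normally switched on in daughter cells as mitosis ends, 6 passed as lower in *top1Δ*, 1 as higher and 10 did not pass. These are 35.3% lower and 5.88% higher, against 5.25% and 1.80% of all genes, while the list median was -0.16, with 0.09 in pair 3. *ASH1*, the repressor of mating-type switching in daughters, gave 1758, 2218 and 1890 in *top1Δ* and 5719, 6601 and 4382 in *top2ts* (-1.50, adjusted p = 4.21e-09). *AMN1*, a brake on mitotic exit, gave 1455, 1878 and 1628 in *top1Δ* and 4303, 5858 and 3474 in *top2ts* (-1.43, adjusted p = 2.11e-08). The Pho85p cyclin gene *PCL9* gave 209, 241 and 208 in *top1Δ* and 645, 694 and 434 in *top2ts* (-1.40, adjusted p = 4.24e-08), and the cell wall protein gene *PIR1* passed as well (-1.35). The higher gene was *DSE1*, a daughter-specific gene, with 188, 235 and 160 in *top1Δ* and 57.9, 114 and 36.3 in *top2ts* (1.63, adjusted p = 7.59e-11). The count of lower genes was 5 without the *trp* spike-ins, without the pairing, and with pair 2 or pair 3 left out. The 26 G1 cyclins and start genes held 4 lower calls, or 15.4% (*PCL2*, *PCL9*, *FAR1* and *YHP1*), of which *FAR1* is also a pheromone gene.

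Of 20 tricarboxylic acid cycle genes 4 were lower in *top1Δ* and 0 higher, or 20% lower against 5.25% lower among all genes. The count was 2 without replicate 2. The 4 include all 3 citrate synthases. *CIT1*, the mitochondrial enzyme, gave 2326, 3320 and 2710 in *top1Δ* and 6621, 6106 and 5186 in *top2ts* (-1.11, adjusted p = 4.52e-05). *CIT2*, the peroxisomal enzyme, gave 3276, 3820 and 3000 in *top1Δ* and 6650, 8282 and 5931 in *top2ts* (-1.04, adjusted p = 1.66e-04), and lost its call without replicate 2 (adjusted p = 0.063). *CIT3* gave 44.0, 72.9 and 51.9 in *top1Δ* and 133, 181 and 122 in *top2ts* (-1.38, adjusted p = 7.57e-08). The 46 respiratory chain genes had no call and a median of -0.25, which was 0.04 with pair 1 left out. Of 21 hexose transporters and sensors 1 was higher (*HXT7*) and 4 were called lower, or 19.0% against 5.25% of all genes (2 without replicate 1 or without the pairing), namely *HXT1* (-0.80), *HXT17*, and *HXT15* and *HXT13*, for which both strains lay below the Tag level, so these 2 calls are no measured differences. The low-affinity transporter gene *HXT1* gave 1080, 1246 and 1113 in *top1Δ* and 2471, 2107 and 1507 in *top2ts* (adjusted p = 0.00927), a call lost without replicate 2 (adjusted p = 0.252) and without the pairing.

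Genes for making ribosomes had few calls in number, though the mitochondrial and assembly lists held more higher calls than the share of all genes. Of 70 mitochondrial ribosomal protein genes 5 were higher in *top1Δ* and 0 lower, with a median of 0.28, and of 111 ribosome assembly genes 4 were higher and 0 lower, with a median of 0.20. These are 7.14% and 3.60% higher, against 1.80% of all genes. Both medians stayed above 0 over the alternatives, from 0.16 to 0.43 and from 0.14 to 0.34, but not in pair 1 alone. In the 3 pairs the medians were -0.13, 0.41 and 0.46 for the mitochondrial list and -0.02, 0.35 and 0.36 for the assembly list. The counts did not hold. Without the pairing 0 and 1 passed, with equal medians 29 and 34, and with pair 1 left out 21 and 28, while with pair 2 or 3 left out the mitochondrial list had 0 calls and the assembly list 1. *SPB1*, a methyltransferase of ribosomal RNA, was the one of these that passed in all alternatives, with 3711, 5706 and 3615 in *top1Δ* and 1866, 2270 and 1543 in *top2ts* (1.18, adjusted p = 9.45e-06). Cytosolic ribosomal proteins had 3 lower calls among 76 of the large subunit (1 without replicate 1 or replicate 2) and 0 among 53 of the small subunit. These are 3.95% and 0%, both under the 5.25% of all genes called lower. *RPL22B*, the minor copy of a large subunit protein gene, had the largest difference of the 3, with 2391, 1973 and 2128 in *top1Δ* and 6779, 6632 and 4435 in *top2ts* (-1.44, adjusted p = 1.90e-08).

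Of 41 iron and copper uptake genes 3 were called higher and 5 lower, or 7.32% and 12.2% against 1.80% and 5.25% of all genes, with 0 and 1 called without replicate 2. One of the 3, *FRE5*, had both strains at or under the Tag level and overlapping arrays, so it is no measured difference. *FET3*, the multicopper oxidase of high-affinity iron uptake, gave 793, 1036 and 1158 in *top1Δ* and 2247, 2558 and 1858 in *top2ts* (-1.16, adjusted p = 1.50e-05). *FIT1*, a wall protein that holds iron, gave 246, 331 and 268 in *top1Δ* and 164, 148 and 121 in *top2ts* (0.96, adjusted p = 6.79e-04), a call lost without replicate 2 (adjusted p = 0.182). Cell wall mannoproteins had 1 higher and 5 lower of 30 (16.7% lower), and genes of meiosis and sporulation 2 higher and 5 lower of 42 (11.9% lower), against 5.25% of all genes. Without replicate 2 the lower genes numbered 1 and 2. Among the meiotic genes *HOP1*, a protein of the meiotic chromosome axis, gave 119, 177 and 164 in *top1Δ* and 402, 337 and 266 in *top2ts* (-1.13, adjusted p = 3.24e-05). *IME4*, which methylates messenger RNA in meiosis, had 1 high array, with 125, 156 and 149 in *top1Δ* and 267, 1045 and 279 in *top2ts* (-1.58), and without replicate 2 it did not pass (adjusted p = 0.065). Of 39 general stress response genes 1 was higher and 3 lower in *top1Δ* (2.56% and 7.69%). Of 34 oxidative stress defence genes 1 was higher and 2 lower (2.94% and 5.88%), near the 1.80% and 5.25% of all genes. The higher genes were *GRE1* (0.77) and *GRX3* (1.32). Among the lower ones *ALD2*, an aldehyde dehydrogenase, gave 738, 757 and 665 in *top1Δ* and 1864, 2187 and 1314 in *top2ts* (-1.28, adjusted p = 9.63e-07). *SRX1*, which repairs oxidised peroxiredoxins, gave 280, 297 and 308 in *top1Δ* and 822, 695 and 539 in *top2ts* (-1.20, adjusted p = 6.93e-06). Among 51 genes of the DNA damage response 1 was higher and 2 lower (1.96% and 3.92%), near the shares of all genes. One of them was *HUG1*, a damage-induced regulator of ribonucleotide reductase, with 225, 127 and 161 in *top1Δ* and 543, 248 and 263 in *top2ts* (-0.98, adjusted p = 4.97e-04). That call too was lost without replicate 2 (adjusted p = 0.069).

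**Figure D5:**
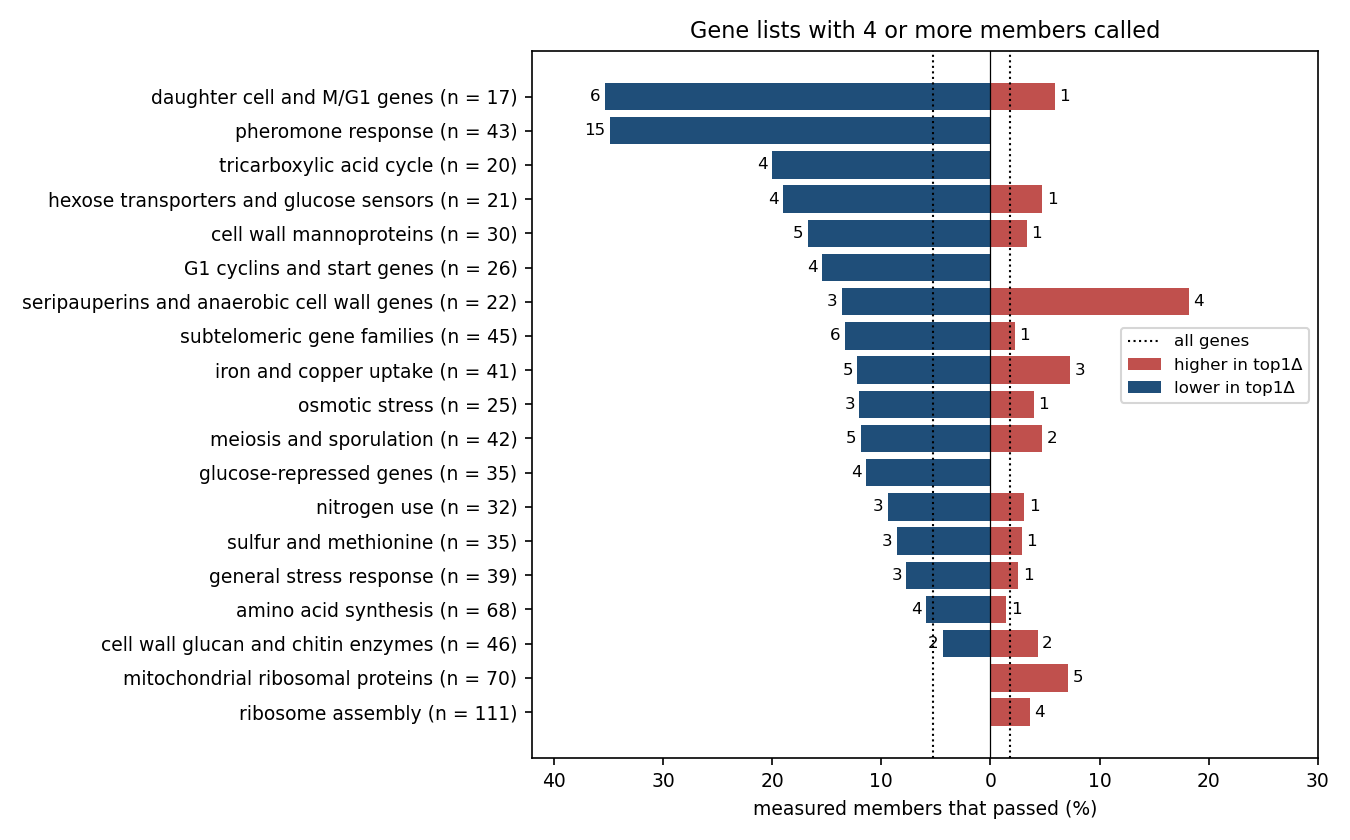
Percent of the measured members of each list (horizontal axis) that were higher (red, right of 0) or lower (blue, left of 0) in *top1Δ* than in *top2ts*, for lists with 4 or more calls; numbers beside bars are genes. Dotted lines mark all genes, 1.80% higher and 5.25% lower, and the daughter cell and pheromone lists reach furthest to the left.

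Lists this small would hold few calls at the 7.05% of all genes, so their counts are given as values. Of 55 lists 15 had no member that passed, among them, of the transcription and chromatin machinery, silencing factors, condensin and cohesin, RNA polymerase subunits, Mediator and elongation factors. The 31 RNA polymerase genes lay between -0.23 and 0.45 and the 19 silencing factors between -0.48 and 0.35. *VPS71*, a subunit of the SWR1 remodeller, was the single call among 53 remodelling genes (0.74, adjusted p = 0.020), and *ADA2*, a subunit of the acetyltransferase SAGA, the single call among 29 genes of SAGA and NuA4 (-0.72, adjusted p = 0.023). Both calls were lost without the *trp* spike-ins and without the pairing.

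Of the inducible genes often used to study promoters, *PHO5* and *ADH2* did not pass, *INO1* was lower and *GAL1* higher in *top1Δ*. *PHO5*, the phosphate-repressible acid phosphatase, gave 339, 202 and 193 in *top1Δ* and 380, 300 and 190 in *top2ts* (-0.23, 95% interval -0.68 to 0.21, adjusted p = 0.683). *ADH2*, the glucose-repressed alcohol dehydrogenase, averaged 264 ± 38.3 in *top1Δ* and 369 ± 95.7 in *top2ts* (-0.46, adjusted p = 0.238). *INO1*, the inositol synthase gene, gave 386, 372 and 378 in *top1Δ* and 861, 794 and 680 in *top2ts* (-1.03, adjusted p = 1.94e-04), and without replicate 2 the adjusted p was 0.063. *GAL1*, the galactokinase gene, was low in glucose in both strains, at 177, 238 and 263 in *top1Δ* and 144, 134 and 136 in *top2ts* (0.69, adjusted p = 0.033), and lost its call without the *trp* spike-ins. *ACT1*, actin, averaged 15354 ± 1906 in *top1Δ* and 14676 ± 88.3 in *top2ts* (0.06, 95% interval -0.38 to 0.50), and *TDH1*, a glyceraldehyde-3-phosphate dehydrogenase, 4690 ± 447 in *top1Δ* and 7054 ± 2070 in *top2ts* (-0.55, adjusted p = 0.130).

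Coding length and signal level correlated weakly with the difference, but lower calls were more frequent among short and among dim genes. Across 5446 protein-coding genes the difference and log10 coding length had a Pearson correlation of 0.10 and a Spearman correlation of 0.13, and in the pairs Pearson's r was 0.11, 0.08 and 0.07. Genes of 1 array share their library, so this is a description across genes. The median difference was -0.08 in the shortest of 5 groups of genes (median coding length 454 nucleotides) and 0.04 in the longest (2820 nucleotides), and lower calls made up 7.16% of the first and 2.30% of the second. With mean log2 signal the Pearson correlation was 0.17 and the Spearman correlation 0.11, and in the pairs Pearson's r was 0.24, 0.10 and 0.12. By mean signal, the median was -0.15 in the dimmest of 5 groups and -0.01 in the brightest, and lower calls made up 12.2% and 3.03%.

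The summed signal of all genes did not separate the strains. The sums were 10674225, 13496743 and 10441290 in *top1Δ*, against 12765065, 13062309 and 9595095 in *top2ts*. As a percent of the paired *top2ts* array, *top1Δ* had 83.6, 103 and 109, a mean of 98.6 ± 13.3 (SD, n = 3 pairs). The exact permutation test by sign flips of the pairs gave a two-sided p of 1, where 3 pairs cannot go below 0.25.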

How the data were processed

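RNA of 12 cultures (4 strains, 3 independent experiments) was hybridised to Affymetrix Yeast Genome 2.0 arrays, and the 6 *top1Δ* and *top2ts* arrays entered all fits. The authors deposited MAS5 signal intensity per probe set, on a linear scale, with 1 value per array; the version of MAS5 is not given in the sources used here. The deposited intensity was rescaled so that the mean log2 of the 42 spike-in probe sets was the same on the 6 arrays, 2 values of 0 were set to 0.1, and log2 values of probe sets for 1 gene were averaged. The table held 10928 probe sets, of which 5028 were at 0 in all arrays and 5498 with 1 *S. cerevisiae* gene gave 5449 genes. Gene names follow the platform table and RefSeq (assembly R64), from which gene order and coding length were also taken, and 265 probe sets with a signal were not named there.

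Differences were fitted in limma 3.58.1 (R 4.3.3) blocked by replicate number, and called at a Benjamini-Hochberg adjusted p below 0.05, two-sided, over all 5449 genes. The fit was tested on simulated data. The simulated noise was the same for every gene and spike-in, so uneven noise was not tested. The numbers were taken to mark the experiment sets, which the sample titles do not state. Deviations of same-numbered arrays correlated at 0.19, 0.18 and 0.13. Correlations between arrays lay between 0.959 and 0.992. The residual variance was shrunk fully to a common value, so a gene's own spread does not enter its error. Where a strain lay at or under the Tag level, a fold is a lower bound, with dim arrays raised to that level. Summed signals were compared by exact permutation in Python 3.11.15 (scipy 1.17.1). The number of arrays limits the precision.

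The genes, the 55 lists and the tests were chosen with earlier results of these data known, so counts per list are descriptions. Genes named were *TOP1* and *TOP2*, the 15 largest differences in each direction (same sign in 3 pairs, brighter strain above the Tag level), up to 4 called members of each list or else its 2 brightest, and *PHO5*, *GAL1*, *ADH2*, *INO1*, *ACT1* and *TDH1*. A few others are marked as chosen after their values were seen or describe neighbours and pathway members. Alternatives covered scaling, spike-in species, the block, an intensity trend, filters and single replicates left out.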

Additional observations from a re-analysis of the deposited data

How the results depend on the processing

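Of 122 named genes that passed, 55 stayed past the threshold in every one of the alternatives in which they were tested, at most 19, and 0 reversed. All 30 largest differences were among the 55, which their selection by size on the same arrays favours. The counts were less stable. Against 98 higher and 286 lower genes in *top1Δ*, equal array medians gave 577 and 775, quantile normalisation 701 and 695, and the median of the spike-ins 59 and 144. Without the *trp* spike-ins 59 were higher. Without the replicate block 43 were higher and 174 lower, and all 217 were among the 384. Leaving out 1 replicate gave 25 to 509 higher and 106 to 263 lower genes. With a 1.5-fold limit 136 genes were up and 364 down, against 27 and 105 at 2-fold. The causes were not tested. The median difference and the summed signal moved by less than the spread between pairs in the alternatives run. Signals near the Tag level of 16.9 have no reliable order, and the 21 called genes with both strains there are not measured differences.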
